A study of Homo sapiens with 2 samples.

Results

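Apolipoproteins are the protein components of lipoprotein particles, and 9 of them were followed here together with MTTP, the microsomal triglyceride transfer protein that builds those particles. The 10 genes are APOA1, APOA2, APOA5, APOB, APOC1, APOC3, APOE, APOH, APOM and MTTP. They were picked by symbol in GEO's platform annotation, and every probe set assigned to 1 of these genes alone was used. They are 10 of 18417 genes with such a probe set, and 14 of the 19460 probe sets of this kind belong to them. The RNA came from Huh-7, an established human hepatocellular carcinoma line that makes and secretes lipoproteins. Cells of 1 sample had been transfected with NC, labelled as the control, those of the other with DEPDC1 siRNA, and both were collected at 72 h. Each group had 1 array (biological replicate 1), so no value below has a replicate spread and nothing was tested for significance. The sequence of the siRNA, the number of siRNAs and the nature of NC are not given in the sources used here.

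Hepatocytes load triglyceride onto newly made apolipoprotein B inside the endoplasmic reticulum and export the product as very low density lipoprotein (VLDL). MTTP transfers the lipid and works as a complex with the protein disulfide isomerase P4HB. Smaller, exchangeable apolipoproteins then decide how fast lipases and receptors act on the particle, while apolipoproteins A-I and A-II form high density lipoprotein (HDL). APOA1, APOC3, APOA4 and APOA5 lie beside each other on chromosome 11, and APOE and APOC1 lie beside each other on chromosome 19.

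RefSeq promoter sequences were at hand for 7 of the 10 genes, in 11 windows that each cover the 250 bases before an annotated start (build GRCh38.p14). APOA1, APOB and APOC3 are the other 3, so the motif counts below do not cover them. Windows of APOE, APOC1 and MTTP are printed below, because the neighbours APOE and APOC1 had nearly the same difference between the arrays and MTTP differed the other way. Each is written 5′ to 3′ in the direction of transcription, and capitals mark the motif GGGCGG (GC box) on either strand. They lie at chr19:44905546-44905795, chr19:44914422-44914671 and chr4:99563880-99564129, all on the plus strand. APOE and MTTP have further annotated starts that are not shown, that of MTTP with its window at chr4:99574574-99574823. Which of the starts is used in these cells was not examined.
APOE: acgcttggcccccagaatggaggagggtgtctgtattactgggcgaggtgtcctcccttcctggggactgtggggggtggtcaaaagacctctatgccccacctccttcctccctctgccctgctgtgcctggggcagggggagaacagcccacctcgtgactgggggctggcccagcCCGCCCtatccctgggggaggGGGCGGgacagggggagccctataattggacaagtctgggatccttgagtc
APOC1: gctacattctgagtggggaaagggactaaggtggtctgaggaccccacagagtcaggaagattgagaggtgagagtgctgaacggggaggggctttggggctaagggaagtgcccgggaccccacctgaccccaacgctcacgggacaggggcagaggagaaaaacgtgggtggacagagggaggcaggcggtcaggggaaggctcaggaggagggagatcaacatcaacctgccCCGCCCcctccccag
MTTP: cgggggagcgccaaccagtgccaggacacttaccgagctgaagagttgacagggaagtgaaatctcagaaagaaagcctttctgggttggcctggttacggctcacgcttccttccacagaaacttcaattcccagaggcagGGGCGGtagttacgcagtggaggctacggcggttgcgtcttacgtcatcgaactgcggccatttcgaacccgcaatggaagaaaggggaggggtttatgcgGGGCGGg

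The GC box occurred in 3 of the 11 windows, those printed, and in 42.6% of all 35116 windows of that length. The windows at the further APOE and MTTP starts, which are not printed, held no GC box. The APOE window held it at bases 179 to 184 on the minus strand and 200 to 205 on the plus strand, counted from 1 at the 5′ end. The APOC1 window held it at bases 236 to 241 on the minus strand, and the MTTP window at bases 143 to 148 and 244 to 249 on the plus strand. The HNF4-type element CAAAGNNCA was found in 1 window, that of APOM, against 4.44% of all windows. The TATA box motif TATAAA was found in 1 window, a second MTTP start, against 10.7%. The C/EBP-type element TTGCNNAA and the HNF1-type element GTTAATNAT were found in none of the 11, against 9.05% and 0.723% of all windows. Both strands were searched and no 2 matches overlapped. A match describes the letters and is no evidence of binding. Only exact matches to each motif were counted, so a site that differs by 1 base is missed. The lack of a match is thus no evidence that a promoter lacks such an element.

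The knockdown was visible in its target. DEPDC1 had a log2 level of 7.82 after NC and 5.15 after the siRNA. Hepatocyte markers were present, as all 10 that were measured of the 12 listed were above the detection threshold in both arrays. That threshold, a log2 value of 4.66, is the overall median of the deposited values and a convention, not a measured background. It had to be reached in at least 1 array for a gene to be called detected, as was so for 9 of the 10 genes and 11352 of all 18417. Where a pair of log2 values is given below, the NC array comes first and the siRNA array second. In a bulk sample, fewer cells of a type and less RNA per cell cannot be told apart.

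APOC3 and APOB were the members with the lowest siRNA values relative to NC, both more than 2-fold lower. Of the 9 detected members, 2 were at least 2-fold lower, against 0.863% of all detected genes, and 0 were at least 2-fold higher, against 1.94%. At 1.5-fold, APOA1 joined them, so 3 were lower, against 3.74% of detected genes, and 0 higher, against 6.03%. In sign alone, 5 detected members had a lower and 4 a higher value in the siRNA array, so the members did not differ in 1 direction. Of all detected genes, 5461 had a lower and 5666 a higher value. Their median log2 difference (siRNA minus NC) was -0.27, and that of all detected genes was 0.00, with quartiles of -0.175 and 0.21. These counts describe 2 arrays, and the 10 genes were chosen with results of these data known.

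**Figure D1:**
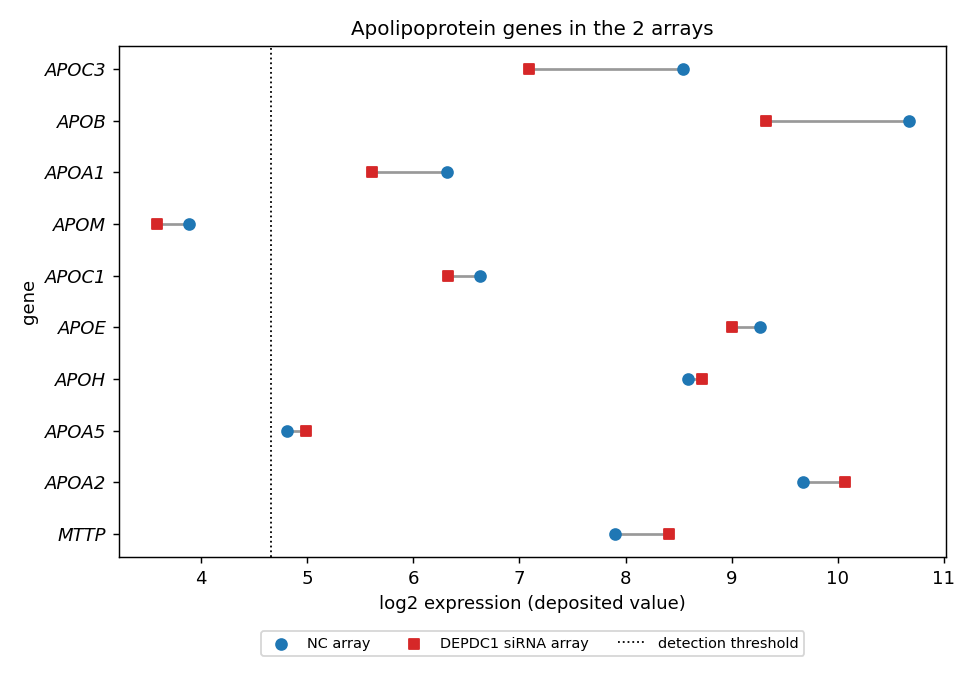
Deposited log2 expression (horizontal axis) of each of the 10 genes (vertical axis) in the NC array (circles) and the DEPDC1 siRNA array (squares), with the detection threshold of 4.66 as a dotted line. APOC3 and APOB have the widest gaps, MTTP and APOA2 lie higher in the siRNA array, and both APOM values lie under the threshold; positions of different genes are not comparable, since each has its own probes.

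The VLDL assembly pair went opposite ways. APOB, which encodes the structural protein of VLDL and low density lipoprotein, had a log2 level of 10.67 after NC and 9.32 after the siRNA. The difference of -1.35 is 2.55-fold lower and ranked 37th from the lowest among 11352 detected genes. MTTP, which lipidates that protein, had 7.90 and 8.41. Its difference of 0.51 is 1.43-fold higher, and 7.89% of detected genes were at least that much higher. The differences of the genes were thus 1.86 apart on the log2 scale, a 3.64-fold change in the ratio of MTTP to APOB signal. P4HB, the partner subunit of MTTP, was named after its values were seen. Its log2 expression was 10.40 and 10.96, a difference of 0.55, and its other probe set gave 9.45 and 10.23, a difference of 0.78. MTTP and P4HB thus both had higher values in the array in which APOB was lower. The amount of their complex was not measured.

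Of the apolipoproteins that restrain lipolysis and clearance, APOC3 was much lower and APOC1 slightly lower. APOC3, an inhibitor of lipoprotein lipase and of remnant uptake, had 2 probe sets. One read 8.54 after NC and 7.09 after the siRNA, and the other read 8.45 and 6.99. Their differences were -1.45 and -1.46, so both placed APOC3 about equally low. Whether these probe sets share probes was not checked, so they are not taken as separate evidence. By the first of these, which has the higher mean and stands for the gene, APOC3 was 2.73-fold lower, the 30th lowest difference among detected genes. APOC1, an inhibitor of cholesteryl ester transfer protein, had 6.63 and 6.33, a difference of -0.30, and 13.2% of detected genes were at or below it.

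APOA5, which promotes triglyceride hydrolysis and lies in the same cluster as APOC3, was measured near the threshold. It read 4.81 after NC and 4.99 after the siRNA, a difference of 0.18. Both values lay close to the threshold, by 0.16 and 0.34, where background signal compresses differences.

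The main HDL apolipoproteins also differed in sign, APOA2 by little. APOA1, which encodes the principal protein of HDL, had 6.32 after NC and 5.61 after the siRNA, 1.64-fold lower. The difference of -0.71 ranked 269th from the lowest among detected genes. Its second probe set read 6.30 and 5.58 and gave the same -0.71. The differences of these probe sets were equal to 4 decimals (-0.7103), so they may share probes and are not separate evidence. APOA2, the second protein of HDL, read 9.67 and 10.07, which is 1.32-fold higher, a difference of 0.40. At least that much higher were 12.3% of detected genes, and the difference was under the 90th percentile of the noise gauge described below (0.445). By the values of both genes, the ratio of APOA1 to APOA2 signal was 2.16-fold lower in the siRNA array.

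The remaining members differed little or lay under the threshold. APOE, the ligand through which remnants are bound by receptors of the low density lipoprotein receptor family, had 9.27 and 9.00. Its difference of -0.27 was within 0.03 of that of APOC1, and 35.4% of detected genes lay as far from 0 in either direction. APOH, the phospholipid-binding beta-2-glycoprotein I, had 8.59 and 8.72, a difference of 0.13, and 64.2% of detected genes lay as far from 0. APOM, the lipocalin that carries sphingosine-1-phosphate on HDL, read 3.88 and 3.58, both under the threshold, so no fold is given. Its 3 probe sets held identical values and count as 1 measurement.

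Measurement noise could be gauged only from probe sets of the same gene. Among 444 genes with 2 or more detected probe sets, 52 had identical values in them. Over the other 392, the range of the log2 difference within a gene had a median of 0.116 and a 90th percentile of 0.445. APOC3, APOB, APOA1 and MTTP differed between the arrays by more than that 90th percentile, and APOA2, APOC1, APOE, APOA5 and APOH by less. The gauge covers neither the spread between cultures nor that between transfections, and shared probes can make it too small.

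**Figure D2:**
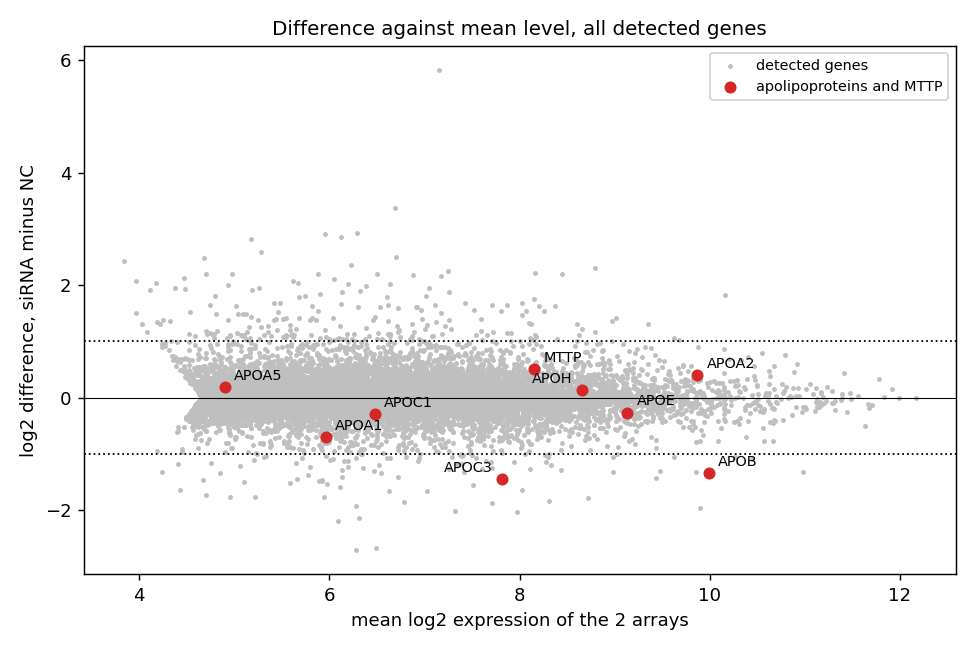
Log2 difference, siRNA minus NC (vertical axis), against the mean log2 expression of both arrays (horizontal axis) for all 11352 detected genes (grey), with the 9 detected members in red and dotted lines at 2-fold. APOC3 and APOB are the members outside the lines, at -1.45 and -1.35, and the other 7 lie between -0.71 and 0.51.

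The genes around each member were read as well. For each locus the nearest 2 protein-coding genes with a probe set of their own were taken on either side. Of these 28 neighbours 21 were detected and 0 were at least 2-fold lower or higher, a count near the background of 0.863% lower and 1.94% higher among all detected genes. Their differences ran from -0.74 to 0.45 and their median was -0.03. At the chromosome 11 cluster, ZPR1 differed by 0.45 and BUD13 by 0.21 on the APOA5 side, and SIK3 by -0.31 and PAFAH1B2 by 0.40 on the APOA1 side. Between them APOC3 and APOA1 were lower, APOA5 differed by 0.18 near the threshold, and APOA4, another apolipoprotein of the cluster, read 4.33 and 4.28, under the threshold. At the APOE cluster, TOMM40 differed by -0.06 and NECTIN2 by 0.33 on one flank and CLPTM1 by -0.03 and RELB by -0.36 on the other. Beside APOB, the lowest neighbour was KLHL29, with 5.10 and 4.36, a difference of -0.74 that was as low as that of APOA1, its siRNA value being under the threshold. LDAH differed by -0.25, GDF7 by -0.08 and ATAD2B by -0.28. Beside MTTP, TRMT10A differed by 0.37 and LAMTOR3 by -0.06, while C4orf17 and DAPP1 were under the threshold.

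**Figure D3:**
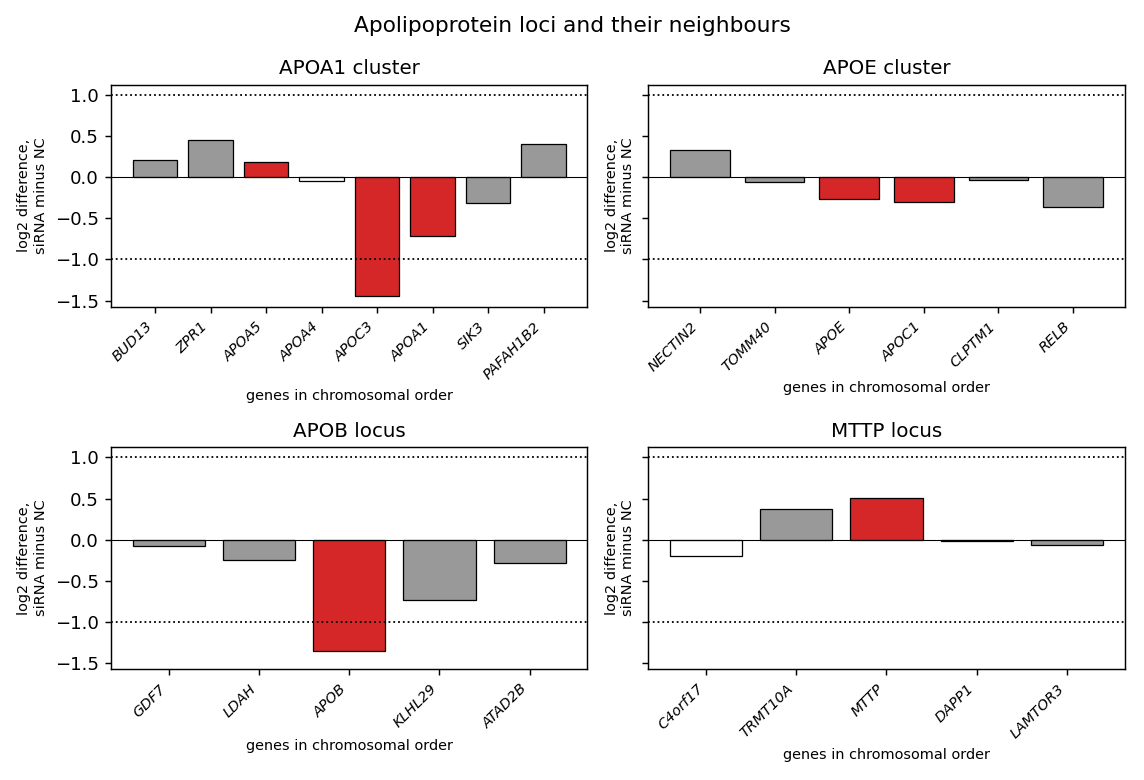
Log2 difference, siRNA minus NC (vertical axis), of genes in chromosomal order (horizontal axis, not to scale) at the APOA1 and APOE clusters and at APOB and MTTP. Red bars are genes of the cluster or the named gene, grey bars detected neighbours and white bars genes under the threshold; dotted lines mark 2-fold, which only APOC3 and APOB cross among the genes drawn.

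Around the members, 6 lists of lipoprotein genes were described, from the particle's other proteins to its receptors. Counts in these lists can be read beside all detected genes, of which 0.863% were at least 2-fold lower and 1.94% at least 2-fold higher. Of 18 other apolipoproteins listed 15 were measured and 4 detected, of which 1 was at least 2-fold lower and 0 higher. That 1 was CLU, clusterin or apolipoprotein J, a chaperone carried on HDL, with 10.14 after NC and 8.82 after the siRNA (2.48-fold lower). APOD, a lipocalin, read 4.51 and 4.87, and APOL2 read 5.14 and 5.05.

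Of the detected genes of VLDL assembly, COPII export and lipid supply 0 passed 2-fold. That count is near the background of 0.863% lower and 1.94% higher among all detected genes. Of 30 listed, 26 were measured and 24 detected, 13 with a higher and 11 with a lower value, and their median was 0.04. The 3 that differed by at least 1.5-fold were all lower, against 3.74% of all detected genes lower and 6.03% higher. PLIN2, a lipid droplet coat protein, read 8.28 and 7.34, a difference of -0.94. SEC23B, a COPII coat subunit, read 8.53 and 7.71, a difference of -0.82. DGAT2, which makes triglyceride, read 6.88 and 6.10, a difference of -0.78. SURF4, the cargo receptor for lipoprotein export, differed by 0.09 and SAR1B, the GTPase of that export step, by -0.10, both named after their values were seen.

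Among 9 detected lipases and remodelling proteins of 15 listed, 6 were lower and 3 higher in value, with a median of -0.27. With the detection threshold at the 75th percentile the median was 0.022, so the list had no settled direction. LIPG, endothelial lipase, which acts on HDL phospholipid, read 5.74 and 4.73 and was 2.01-fold lower, the 1 member of the list past 2-fold. By quantile normalization or after a loess trend it was not past 2-fold, and at the 75th percentile threshold it was not detected. PON1, an esterase carried on HDL, read 6.43 and 5.71, a difference of -0.72. LIPA, the lysosomal lipase, read 6.96 and 7.43, a difference of 0.47.

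Of 9 detected receptor and clearance genes out of 19 listed, 7 were higher and 2 lower in the siRNA array, with a median of 0.26. Of the 9, 2 were at least 2-fold higher and 0 lower, against 1.94% and 0.863% of all detected genes. OLR1, a receptor for oxidized low density lipoprotein, read 7.49 and 9.02 and was 2.90-fold higher. VLDLR, which binds lipoproteins that carry APOE, read 6.28 and 7.67 and was 2.62-fold higher. LRP1, the endocytic remnant receptor, read 7.47 and 8.13, a difference of 0.66. The other genes differed less: LRP2, MYLIP, SDC1 and LSR by 0.16 to 0.27, LRP8 by -0.08 and SCARB1, the HDL receptor, by -0.31, these 6 being named after their values were seen. Of the ABC transporters that load sterol onto particles or export it, 4 of 6 were detected. Of these 0 passed 2-fold, a count near the shares of all detected genes. ABCA1, which lipidates apolipoprotein A-I, read 7.34 and 7.62, while ABCG1 differed by -0.14 and ABCA7 by -0.09.

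Transcription factors known to act on apolipoprotein genes were lower in value in 15 of 20 detected cases and higher in 4, with a median of -0.26. Among all 11352 detected genes, 5461 were lower and 5666 higher in value. CEBPA, a hepatocyte differentiation factor, was the 1 factor at least 2-fold lower, with 8.07 and 6.76. After each array was centred on its median, 2 factors passed 2-fold. ONECUT1 read 8.58 and 7.62, a difference of -0.95, and RORA, an orphan nuclear receptor, 6.55 and 5.66, a difference of -0.88. Whether these factors bear on APOB, APOC3 or APOA1 in these cells was not tested. The other 6 of the 27 factors listed were not analysed here and 1 of those measured was under the threshold.

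Plasma carrier proteins, another set of secreted hepatocyte products, were set beside the members. Of 11 detected plasma carriers, 7 had differences of at least 2-fold lower and 1 of at least 2-fold higher, and their median was -1.09. Among all detected genes these shares were 0.863% lower and 1.94% higher. For the apolipoproteins and MTTP, 2 of 9 were at least 2-fold lower and the median was -0.27. In 5 of the 7 lower carriers both values were above the threshold. With low values raised to the threshold 6 were at least 2-fold lower, and 5 were with the threshold at the 75th percentile. AFP, the fetal albumin homologue, read 10.89 and 8.92, and TF, transferrin, 10.99 and 9.90. The acute-phase orosomucoids ORM1 and ORM2, which are nearly identical and may cross-hybridize, differed by -1.78 and -1.84. AMBP, the precursor of alpha-1-microglobulin, differed by -1.07. AHSG (5.52 and 4.19) and SERPINA6 (5.76 and 4.66), which encode fetuin-A and the cortisol carrier, reached the threshold only after NC, so against it they were at least 1.82-fold and at least 2.15-fold lower. TTR, the thyroid hormone carrier transthyretin, read 8.31 and 9.72, a difference of 1.41. Among 19 detected cholesterol synthesis genes 0 passed 2-fold in either direction, a count near the shares of all detected genes. Their median was -0.07. SC5D, a sterol desaturase, differed most, by -0.47, followed by IDI1 (-0.41) and CYP51A1 (-0.31). These lists were set side by side without a test of their difference.

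**Figure D4:**
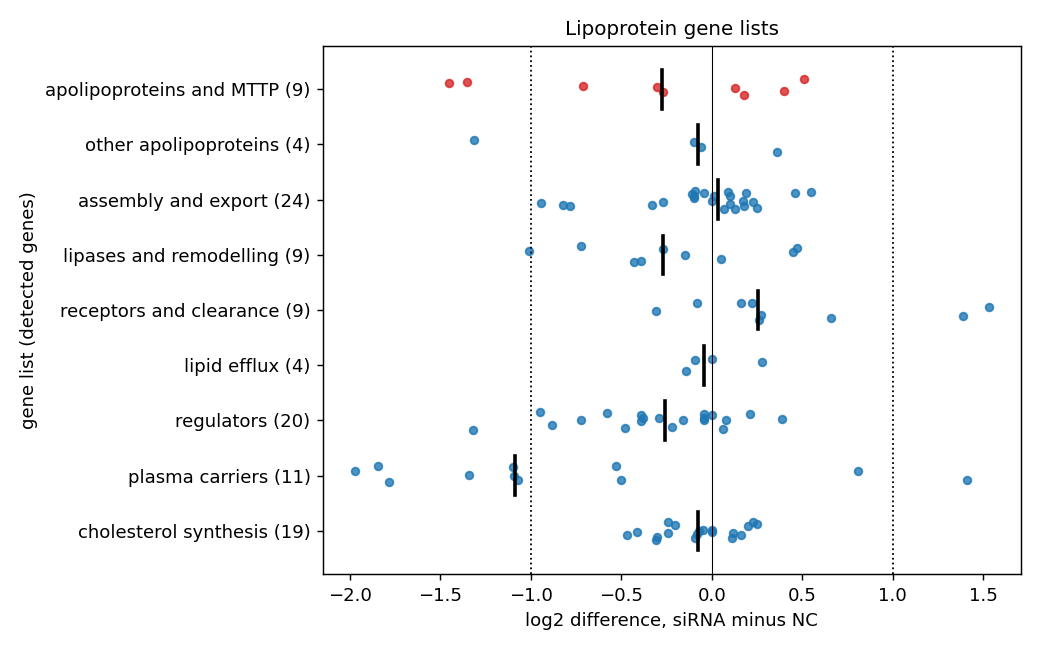
Log2 difference, siRNA minus NC (horizontal axis), of each detected gene (points) in 9 gene lists (vertical axis, number of detected genes in parentheses); black bars are medians, dotted lines mark 2-fold, and vertical scatter within a list has no meaning. The members (red) run from -1.45 to 0.51 with a median of -0.27, the plasma carriers have a median of -1.09, and the receptors one of 0.26.

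Markers of other cell types were checked because macrophages also make APOE and enterocytes make APOB. Both samples are labelled as Huh-7 cells, so a detected marker does not show that another cell type was present. Of 12 macrophage markers 4 were detected in each array, and the log2 values of all 12 summed to 47.6 (NC) and 49.2 (siRNA). The detected ones were CD14 (6.83 and 7.10), MARCO (5.52 and 5.52), TYROBP (5.34 and 5.27) and LYZ, lysozyme, which was 2.30-fold higher (4.85 and 6.05). CD163, CSF1R and PTPRC were among the 8 under the threshold. Of 10 enterocyte markers 5 were detected in each array, with sums of 48.0 and 47.3. These were VIL1 (8.32 and 8.58), CDX2 (6.48 and 5.80), ANPEP (a difference of -0.18), CDX1 (5.54 and 5.47) and ALPI (5.25 and 5.06), while FABP2 and SI were among the 5 under the threshold. Of 14 fibroblast and stellate cell markers 7 were detected in each array, with sums of 63.9 and 69.6. Among them LUM (7.64 and 9.95), FBN1 (5.79 and 7.98) and COL1A2 (5.43 and 6.50) were past 2-fold, while DCN and PDGFRB lay under the threshold. The rest of the detected ones differed little: COL1A1 by 0.06, PDGFRA by 0.09, DES by 0.11 and COL3A1 by -0.04. The median difference of the 7 was 0.11, so the list as a whole did not share the rise of those past 2-fold. The 10 hepatocyte markers summed to 100.2 after NC and 93.3 after the siRNA, with a median difference of -0.78, in the same array in which APOB and APOC3 were lower. Of these 10 genes 5 are also among the plasma carriers above, so the lists are not separate evidence. The part of either shift in the differences of the members was not tested.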

How the data were processed

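Total RNA of 2 Huh-7 cultures was hybridized to 1 expression array each. The table the authors deposited holds log2 values of 33297 probe sets on each array; the log2 unit was inferred from the range of 1.39 to 12.7 and medians of 4.67 (NC) and 4.64 (siRNA). The tools named are Transcriptome Analysis Console 3.0 and Affymetrix Expression Console, per the submitters' processing notes; how background was corrected and values normalized is not given there. The sorted columns differed by at most 0.0997, so no further scaling was applied. Symbols came from GEO's platform annotation (1 gene for 19460 probe sets, several for 1754, none listed for 12083), updated by Entrez identifier through the RefSeq table of GRCh38.p14 (19429 matched). The annotation names no build.

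For 769 genes with several probe sets, the one with the highest mean was used. Folds are 2 raised to the log2 difference; 1 array per group limits the precision, and intensities were not analysed here. Where 1 of a gene's values lay under the threshold, the fold of a named gene is a bound against it; counts at 2-fold use the values as deposited. The calculation was tested on simulated data. Python 3.11.15, pandas 2.3.3 and statsmodels 0.14.6 were used. The members and lists were chosen with earlier results of these data known. Named are all members, DEPDC1, flanking genes, and from each list the detected genes at least 2-fold different and, where these are fewer than 3, the next most different up to 3; other names are marked as chosen after their values were seen. In the marker lists only examples are named. Alternatives were array centring, quantile normalization, a loess trend, the mean of probe sets, 2 other detection thresholds, raising low values to the threshold, and a fold of 1.5.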

Additional observations from a re-analysis of the deposited data

How the results depend on the processing

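No paired analysis was possible because each group has 1 array. The counts of members at least 2-fold lower (2) and higher (0) and the members' median kept their values, within 1.5 times for counts or within 0.157 (the pooled SD between probe sets of a gene) for the median, under every alternative run, and with a fold of 1.5 the counts were 3 and 0. Over those alternatives the difference of APOC3 ran from -1.51 to -1.45, APOB from -1.41 to -1.33, APOA1 from -0.77 to -0.71, MTTP from 0.45 to 0.51, APOA2 from 0.34 to 0.42 and APOA5 from 0.12 to 0.21, where a value could be had. With the detection threshold at the 75th percentile, which leaves fewer genes, the median of other apolipoproteins was -0.69, that of lipases and remodelling 0.022, and that of lipid efflux 0.28. Without a threshold the median of plasma carriers was -0.72. Of 259 values under alternatives, 251 stayed within these limits. LIPG lost its place past 2-fold by quantile normalization and by the loess trend. Depth is not defined for arrays; APOA5 and APOM, near or under the threshold, are the members whose differences signal over background limits most.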

Other observations

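Some genes had exactly the same deposited value in both arrays. Of 11352 detected genes, 225 did. APOA4, beside APOC3 on chromosome 11, has a probe set that read 3.95 in both arrays, while its other probe set read 4.33 and 4.28. The cause of these ties was not tested.

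The 3 identical probe sets of APOM and the pair of APOA1 probe sets with equal differences show that a count of probe sets would overstate the number of measurements for these genes. Counted by gene, as above, each contributes once.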
